A study of Danio rerio with 3 samples.

Results

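Hepatocytes of a zebrafish liver with hepatocellular carcinoma (HCC) were divided by s100a10. Those with s100a10 RNA carried 10.8 times as much icn and 5.15 times as much fabp1b.1 as those with none detected. They also carried more nupr1b, rgs4 and basp1. The cells came from the CreLox HCC library. They had fewer than 5000 unique molecular identifiers (UMIs, counts of single captured RNA molecules), under 2% of UMIs in mitochondrially encoded rows, and 0 UMIs of the macrophage complement genes c1qa, c1qb and c1qc, the chemokine gene ccl38.6 and the endothelial gene tmem88a. Of 2112 cells in the library, 953 met these limits. The zebrafish has a pair of s100a10 genes, s100a10a and s100a10b, and their UMIs were added. There were 343 cells with 2 or more s100a10 UMIs, called s100a10 cells here, and 390 cells with 0, while 220 cells with exactly 1 UMI entered neither set. In such shallow cells a count of 0 does not show that the RNA was absent, so "without s100a10" means that none was detected. The 733 cells of the comparison were 34.7% of the library, out of 6055 cells in the whole series.

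The series holds 1 library from 1 male liver for each of 3 groups, all taken at 6 months of age. CreLox HCC came from Tg(fabp10a-CreERT2;fabp10a-flox-beta-catenin), in which the hepatocyte promoter of fabp10a drives both the tamoxifen-dependent Cre recombinase and a switch that exchanges EBFP, a blue fluorescent protein, for activated Xenopus β-catenin; the larvae had received 10 µM tamoxifen from day 3 to day 6. The no HCC liver, Tg(fabp10a-flox-beta-catenin), carried the switch without Cre and had the same tamoxifen treatment, and the HepABC HCC liver, Tg(fabp10a-pt-beta-catenin), made the activated protein directly from the fabp10a promoter without tamoxifen. The paper's methods also give the HepABC HCC fish an mCherry reporter transgene for Wnt activity, which they do not list for the other fish. Since each group was 1 liver and cells of 1 liver are not replicates, no test was made. The bracketed ranges are exact 95% intervals that cover counting error only.

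S100 proteins are small EF-hand proteins, most of which bind calcium and change the activity of partner proteins. In mammals S100A10 is an exception that has lost calcium binding; it pairs with annexin A2 at the cell surface and membrane skeleton and is a receptor for plasminogen. Hepatocytes secrete most plasma proteins and carry out gluconeogenesis, detoxification and lipid synthesis, and activated β-catenin, the effector of Wnt signaling, is a common driver of HCC.

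The s100a10 cells had a median of 1816 UMIs and 549 genes, and the cells without s100a10 had 1541.5 UMIs and 488.5 genes, so the first set was deeper. The sets were summed to 723424 and 708554 UMIs, and a gene's level is given as its UMIs per 1000000 UMIs of the set (CPM). The median mitochondrial share was 0.724% in s100a10 cells and 0.883% in the others. Among the s100a10 cells, 200 had UMIs of both copies, 36 of s100a10a only and 107 of s100a10b only; 95 cells had exactly 2 UMIs and the highest count was 50. The cells were chosen by these UMI counts of s100a10a and s100a10b, which are therefore given as a description. The deepest cell inside the limits had 4984 UMIs and the shallowest outside had 5000, and the mitochondrial shares on either side of the limit were 1.999% and 2.002%. Droplets also hold free RNA from broken cells. Of 110 cells that had 2 or more UMIs of the 5 excluded genes, at a median of 1758 UMIs, 42.7% (33.3–52.5) had at least 1 s100a10 UMI and 13.6% (7.84–21.5) had 2 or more, against 36.0% with 2 or more among the 953 cells.

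Both sets carried the hepatocyte program. fabp10a, the hepatocyte fatty acid binding protein, was found in every cell and reached 59944 CPM with and 59037 CPM without s100a10. A list of 19 hepatocyte genes took a median of 14.2% of a cell's UMIs in s100a10 cells (range 1.37–29.7%) and 16.7% in the others (0.892–36.9%), against a median of 3.51% in the 110 cells with UMIs of the excluded genes. The activated β-catenin transgene was at 330 CPM with and 315 CPM without s100a10, ratio 1.05 (0.871–1.27), and the sets could not be separated on it at this depth. The same row was at 302 CPM in no HCC cells of 5000 or more UMIs, which carry the switch without Cre, and at 20.7 CPM in such cells of HepABC HCC, so it does not measure the switched-on form alone. EBFP was lower in s100a10 cells, at 7339 against 10035 CPM (ratio 0.731; 0.706–0.758). Endogenous ctnnb1 was at 109 against 49.4 CPM, 2.21-fold higher (1.47–3.39), and its 79 and 35 UMIs set the width of that interval. It was the only 1 of 15 measured genes of a Wnt and β-catenin list that was deep enough to compare. The list as a whole summed to 212 against 178 CPM, a ratio of 1.19 (0.933–1.52) whose interval held 1.

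Over 1626 genes with 50 or more UMIs in both sets together and UMIs in 20 or more cells, 46 (2.83%) were at least 2-fold higher and 36 (2.21%) at least 2-fold lower in s100a10 cells after 10 was added to each CPM. The median log2 ratio of all 1626 genes was 0.06, with 941 above and 685 below 0. The 2 s100a10 genes, the 5 excluded genes and the mitochondrial rows were left out because they chose the cells. Most genes of this depth therefore differed by less than 2-fold, and the differences described next belong to a small set. A second pass kept only cells with at most 1 UMI over lists of leukocyte, endothelial, stellate, thrombocyte and exocrine pancreas genes and fewer than 10 UMIs over the erythrocyte list, which left 237 s100a10 cells and 302 cells without; it is called the filter on other cell types. Its lists include f5, fn1b and cd63, which hepatocytes may make themselves, so some of the cells left out may be hepatocytes. Before the filter, 34 s100a10 cells and 20 cells without had 2 or more UMIs of the thrombocyte list. No cell of these sets had more than 5 and 7. After the filter fn1b was at 66.1 and 65.7 CPM, while the thrombocyte genes gp1bb and itga2b were at 0. With it, 31 of 1224 genes (2.53%) were at least 2-fold higher and 13 (1.06%) at least 2-fold lower. All 46 higher genes kept their sign with the filter, and 28 of the 36 lower genes did. Of the 46, 29 were deep enough with the filter and 19 of these were still at least 2-fold higher. The filtered cells are part of the cells that gave these genes, so the kept signs are a description and not separate support.

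**Figure D1:**
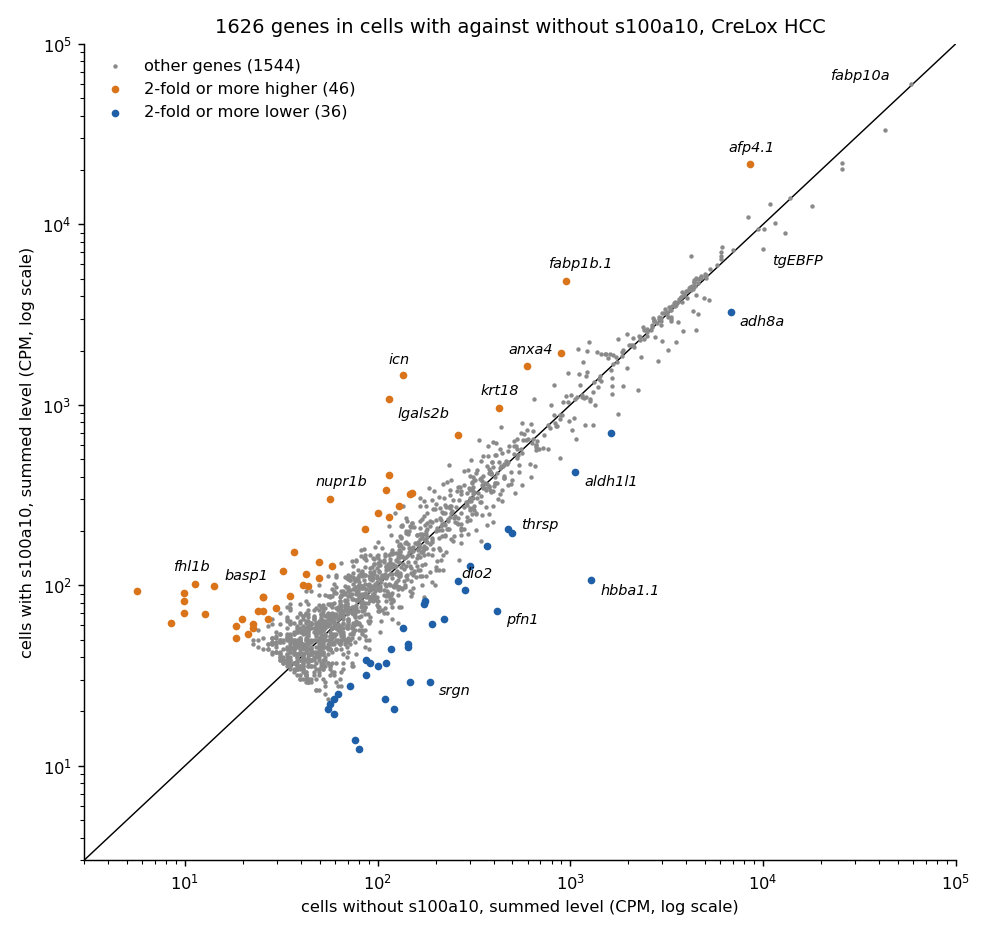
Each point is one of 1626 genes, placed by its summed level (CPM, log scale) in 390 cells without s100a10 (horizontal) and 343 s100a10 cells (vertical); the line marks equal levels, and the 46 higher and 36 lower genes are coloured. icn, lgals2b and fabp1b.1 stand farthest above the line among genes over 1000 CPM in s100a10 cells, and hbba1.1 stands farthest below it.

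Another S100 gene led the higher set on the scale with 10 added to CPM. icn, which encodes the fish S100 protein ictacalcin, had 1055 UMIs in s100a10 cells and 96 in cells without, or 1458 against 136 CPM, a ratio of 10.8 (8.73–13.4). After each cell was thinned to 800 UMIs, icn was found in 42.0% of s100a10 cells (36.7–47.4) and 10.0% of the others (7.21–13.4). A share at this depth depends on the level, so it is not separate from the ratio and does not show how many cells lacked icn. With the filter on other cell types the ratio was 11.5 (8.73–15.3), and in the 19 s100a10 cells and 86 cells without that had 0 UMIs over the cholangiocyte list it was 1.71. The 110 cells with UMIs of the excluded genes had icn at 374 CPM, above the 136 CPM of cells without s100a10. s100v2, the other S100 gene deep enough to compare, was at 85.7 against 25.4 CPM, 3.37-fold higher (1.97–6.06). The 7 measured members of the family list other than s100a10a and s100a10b summed to a ratio of 8.81 (7.33–10.7), nearly all of it icn.

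Among the other leading genes, fabp1b.1, a liver-type fatty acid binding protein, was at 4867 CPM with and 946 CPM without s100a10, 5.15-fold higher (4.74–5.60), and at 800 UMIs per cell it was found in 78.1% and 44.6% of cells. nupr1b, a small chromatin protein induced by stress, was at 303 against 56.5 CPM (ratio 5.36; 3.81–7.71). fhl1b, a LIM domain protein, was at 102 against 11.3 CPM (ratio 9.06; 4.37–21.8). rgs5a, a regulator of G protein signaling known from pericytes, was at 70.5 against 9.88 CPM (ratio 7.14; 3.22–18.6), and rarres3l at 69.1 against 12.7 CPM (ratio 5.44; 2.65–12.6). Of these 5 genes none fell under a ratio of 4 with the filter on other cell types, where they ranged from 4.37 for fabp1b.1 to 11.8 for fhl1b. Other settings gave lower ratios: 2.42 for fabp1b.1 and 2.60 for fhl1b in cells with 0 UMIs over the cholangiocyte list, 1.71 for nupr1b and 1.26 for rarres3l with s100a10a alone, and 3.23 for rgs5a in cells under 1500 UMIs. afp4.1, a type IV antifreeze protein related to apolipoproteins and one of the most abundant RNAs of these cells, was at 21527 against 8589 CPM, a ratio of 2.51 (2.43–2.58).

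Genes best known from neurons were measured at low levels, and 3 of them were higher in s100a10 cells. rgs4, which speeds the inactivation of G proteins, had 66 UMIs in s100a10 cells and 7 in the others, or 91.2 against 9.88 CPM (ratio 9.24; 4.24–23.9). basp1, a membrane protein of growth cones, had 72 and 10 UMIs, or 99.5 against 14.1 CPM (ratio 7.05; 3.62–15.3). uchl1, a neuronal ubiquitin hydrolase, had 84 and 30 UMIs, or 116 against 42.3 CPM (ratio 2.74; 1.79–4.31). At 800 UMIs per cell rgs4 was found in 8.16% of s100a10 cells and 1.28% of the others. At the same depth basp1 was found in 6.12% and 0.769%, and uchl1 in 9.62% and 3.33%. A share at this depth depends on the level, so these shares do not show how many cells carried each gene. The neuropeptide gene tac4, a tachykinin precursor, went the other way, at 228 against 289 CPM (ratio 0.788; 0.638–0.972). Of 26 listed neuronal genes 5 were deep enough to compare, of which 3 were at least 2-fold higher and marcksl1b, a membrane substrate of protein kinase C, was at least 2-fold lower. Over all 1626 genes 46 were at least 2-fold higher and 36 at least 2-fold lower.

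Cells were also divided into steps by their number of s100a10 UMIs. Of the 12 genes with the highest ratios on CPM + 10, 7 were higher at each further step, and of the 12 with the lowest, 3 were lower at each. These genes were picked by 2 or more against 0 UMIs in the same cells, so a difference from the lowest step was built in. The same count over all genes was not made, and the steps are a description. icn was at 136 CPM in cells with 0 UMIs, 214 with 1, 468 with 2, 732 with 3 to 5 and 2615 with 6 or more. fabp1b.1 was at 946, 2032, 2496, 3645 and 7242 CPM over the same steps, and basp1 at 14.1, 17.0, 26.9, 60.2 and 174 CPM. rgs4 did not keep this order, at 9.88, 26.7, 16.1, 64.6 and 157 CPM, nor did rgs5a, at 9.88, 31.6, 5.38, 64.6 and 115 CPM. In the other direction dio2, the deiodinase that makes active thyroid hormone, was at 285, 226, 145, 116 and 45.9 CPM. Outside the 12 lowest, thrsp, a thyroid hormone-responsive regulator of lipid synthesis, was at 500, 464, 355, 207 and 88.5 CPM. fabp10a stayed between 57127 and 63083 CPM. The median depth of the steps was 1541.5, 1544, 1762, 1562.5 and 2158.5 UMIs, so the last step was the deepest. With the filter on other cell types, icn was at 109 CPM in the lowest and 2602 CPM in the highest step.

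**Figure D2:**
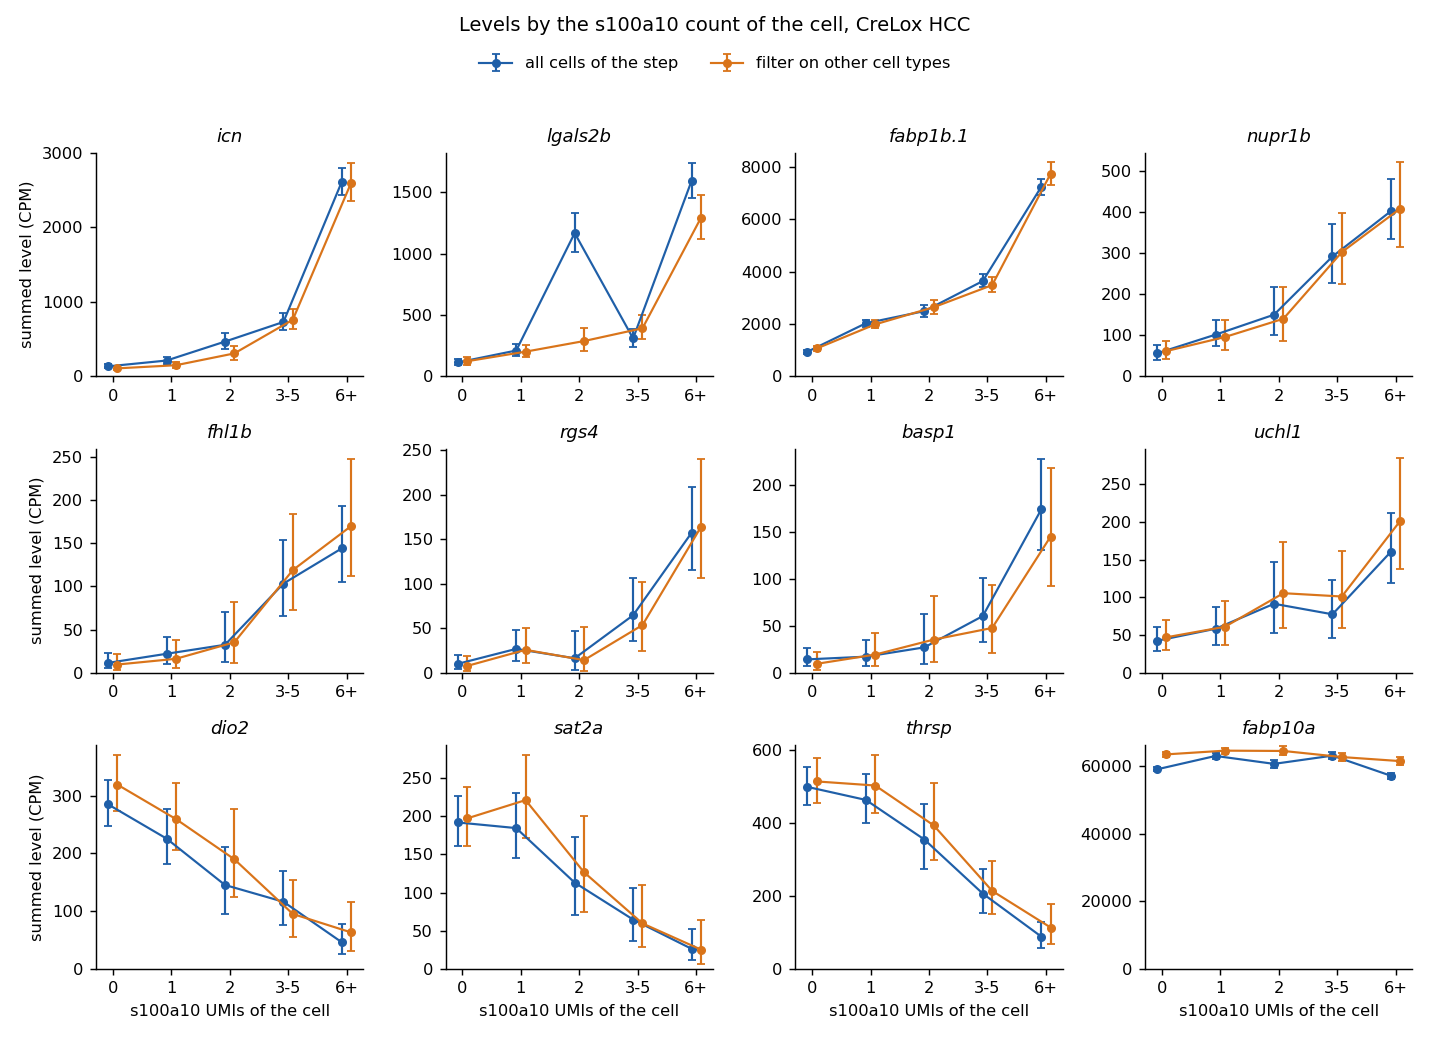
Each panel gives 1 gene's summed level (CPM, vertical axis from 0) in cells with 0, 1, 2, 3 to 5 and 6 or more s100a10 UMIs (horizontal axis), for all cells of the step (blue) and with the filter on other cell types (orange); bars are exact 95% Poisson intervals. icn climbs from 136 to 2615 CPM and dio2 declines from 285 to 45.9 CPM. lgals2b is at 1167 CPM at 2 UMIs, 310 CPM at 3 to 5 and 1593 CPM at 6 or more. With the filter these lgals2b levels are 288, 392 and 1292 CPM.

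Several genes listed for cholangiocytes, the bile duct epithelium, were also higher, and a few cells carried much of this. lgals2b, a galectin, was at 1071 against 114 CPM (ratio 9.37; 7.45–11.9), anxa4, a calcium-dependent membrane-binding annexin, at 1634 against 596 CPM (ratio 2.74; 2.45–3.07), and tm4sf4, a tetraspanin-like membrane protein, at 276 against 128 CPM (ratio 2.15; 1.67–2.79). Of 14 cholangiocyte genes listed 13 were measured and 4 were deep enough to compare, of which 3 were at least 2-fold higher, beside 46 of all 1626 genes. The defining genes epcam, krt4, sox9b and elf3 had 39, 6, 1 and 5 UMIs in s100a10 cells and 0 each in cells without, while cdh17 and agr2 were at 0 in both. Those UMIs lay in 4 of the 343 s100a10 cells, which held 41.0% of the set's lgals2b UMIs, 25.6% of its anxa4 UMIs and 11.9% of its icn UMIs, and had fabp10a at 11231 CPM. The filter on other cell types gave lgals2b a ratio of 5.37 (4.1–7.11) and the list's summed level a ratio of 2.1 (1.9–2.33) in place of 3.37 (3.10–3.67). It gave anxa4 1.815 (1.59–2.08), tm4sf4 1.47 (1.05–2.06) and cldn15lb, the other gene deep enough, 1.02 (0.715–1.46). Only 1 of the 4 was then at least 2-fold higher. In that smaller set epcam and the list's other rare genes were mostly at 0, with 8 of the 13 at 0 in s100a10 cells and 7 in the others. In HepABC HCC cells of 5000 or more UMIs lgals2b, anxa4 and tm4sf4 were at 990, 570 and 411 CPM. si:ch211-137i24.10, an uncharacterized gene, went from a ratio of 16.4 to 2.65 with the filter, and 82.1% of its UMIs in s100a10 cells lay in 5 cells.

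The sterol pathway was higher as a group. All 7 of its genes that were deep enough had a log2 ratio above 0, their median was 0.90 beside 0.06 for all genes, and 3 were at least 2-fold higher. Of all 1626 genes, 941 were above 0 and 46 (2.83%) at least 2-fold higher. With the filter on other cell types 5 sterol genes were deep enough, with a median of 0.48, and 2 were at least 2-fold higher. The intervals of insig1 (0.761–1.86), acat2 (0.806–2.08) and msmo1 (0.830–2.73) then held 1. hmgcra, the rate-limiting HMG-CoA reductase, was at 62.2 against 8.47 CPM (ratio 7.35; 3.12–21.1), hmgcs1, the step before it, at 120 against 32.5 CPM (ratio 3.71; 2.32–6.15), and fdps, farnesyl diphosphate synthase, at 71.9 against 25.4 CPM (ratio 2.83; 1.63–5.14). The 24 measured genes of the list summed to 795 against 387 CPM, a ratio of 2.06 (1.78–2.38), and to 1.76 (1.49–2.09) with the filter on other cell types. tmem97, a sterol-responsive membrane protein, was outside the list and at 152 against 36.7 CPM (ratio 4.14; 2.68–6.62). Fatty acid synthesis was mixed: me1, the malic enzyme that supplies NADPH, was at 81.6 against 9.88 CPM (ratio 8.26; 3.77–21.4) and elovl6, a fatty acid elongase, at 134 against 49.4 CPM (ratio 2.71; 1.83–4.12). thrsp was at 195 against 500 CPM (ratio 0.390; 0.319–0.476). fasn, the fatty acid synthase itself, was at 48.4 against 38.1 CPM (ratio 1.27; 0.747–2.18), a difference within counting error.

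Several cytoskeletal genes were higher by a smaller factor. actb2, a cytoplasmic actin, was at 6724 against 4230 CPM (ratio 1.59; 1.52–1.66) and cfl1, the actin-severing cofilin, at 593 against 373 CPM (ratio 1.59; 1.36–1.86). krt18, a keratin of simple epithelia, was at 966 against 425 CPM (ratio 2.28; 1.98–2.61) and its partner krt8 at 1084 against 649 CPM (ratio 1.67; 1.49–1.88). krt92, the only other keratin of the list deep enough to compare, was at 122 against 162 CPM (ratio 0.750; 0.561–0.998), and krt18 was outside the list. tagln2, an actin-binding transgelin, was at 252 against 100.2 CPM (ratio 2.51; 1.90–3.35). Of 13 actin and motility genes 11 had a log2 ratio above 0, with a median of 0.49, beside 941 of all 1626 genes. The summed ratio of the actin and motility list was 1.42 (1.38–1.48) and 1.71 (1.63–1.79) with the filter. The exception with the lowest ratio was pfn1, a profilin, at 71.9 against 415 CPM (ratio 0.173; 0.126–0.233), which was 0.987 with the filter. The 110 cells with UMIs of the excluded genes had pfn1 at 6753 CPM.

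Several abundant secreted products of hepatocytes were lower by less than 2-fold, and the metabolic lists were mixed. The 19 hepatocyte genes summed to 143374 against 164507 CPM, a ratio of 0.872 (0.864–0.879), and none of the 18 deep enough was past 2-fold in either direction, with 7 above and 11 below 0 on the log2 scale. tfa, the iron carrier transferrin, was at 12714 against 17901 CPM (ratio 0.710; 0.691–0.730), hpx, the heme carrier hemopexin, at 1210 against 2257 CPM (ratio 0.536; 0.493–0.582), and serpina1, the antiprotease α1-antitrypsin, at 2571 against 3830 CPM (ratio 0.671; 0.633–0.712). apoa4b.1 and rbp4, which carry lipid and retinol, were exceptions at 1.56 (1.4–1.73) and 1.67 (1.33–2.12). Of the 12 genes of the gluconeogenesis and glycogen list that were deep enough, 6 were higher, 6 were lower and none was past 2-fold, with a median log2 ratio of 0.01. Of 11 glycolysis genes 2 were higher, 9 were lower and none was past 2-fold, with a median of -0.14. Of 9 cytochrome P450 genes 5 were higher and 4 lower, with a median of 0.08. Over all 1626 genes 941 were higher and 685 lower, with a median of 0.06. Of these, 46 (2.83%) were at least 2-fold higher and 36 (2.21%) at least 2-fold lower. With so few genes in each list, none past 2-fold is close to that share. fbp1b, fructose bisphosphatase, was at 2585 against 4494 CPM (ratio 0.575; 0.543–0.609).

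Of the 36 lower genes, 15 were deep enough with the filter on other cell types and 12 of these were still at least 2-fold lower. They included enzymes, uncharacterized genes and ndrg2. adh8a, an alcohol dehydrogenase, was at 3269 against 6797 CPM (ratio 0.481; 0.458–0.505) and 0.506 with the filter, just short of the 2-fold limit. aldh1l1, which oxidizes formyl-tetrahydrofolate in the folate cycle, was at 426 against 1060 CPM (ratio 0.402; 0.351–0.459) and 0.428 with the filter. dio2 was at 94 against 285 CPM (ratio 0.330; 0.247–0.436), and sat2a, a polyamine acetyltransferase family member, at 60.8 against 192 CPM (ratio 0.317; 0.220–0.448), with filtered ratios of 0.354 and 0.346. The glutathione transferases gsta.1 and gsta.2 were at 0.443 (0.354–0.552) and 0.363 (0.215–0.595), and how reads shared by these near copies were assigned was not examined. ndrg2, an N-myc downstream-regulated gene, was at 129 against 302 CPM (ratio 0.426; 0.330–0.545).

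Genes of blood cells were also in the lower set. hbba1.1, a β-globin, had the lowest ratio of all, 0.0829 (0.0648–0.105), with 77 against 910 UMIs, and 99.1% of the UMIs without s100a10 lay in 5 cells. The erythrocyte list of 9 genes was at 178 against 2230 CPM, and a single cell without s100a10 held 1222 of its UMIs. The leukocyte list, 23 of 25 genes measured, was at 346 CPM with s100a10 and 765 CPM without, where the share per cell ranged from 0 to 1.24% and from 0 to 2.15% of UMIs. Cells with 2 or more UMIs of the list numbered 51 of 343 with s100a10 and 48 of 390 without. A single cell held up to 25 and 82 of these UMIs. Of the 4 leukocyte genes deep enough to compare 3 were at least 2-fold lower, and the other, cd63, was above 0 on the log2 scale. ptprc, marco, mpeg1.1, lck, cd8a, il2rb, mfap4, nkl.3 and nkl.4 were at 0 in s100a10 cells, and only nkl.3 and nkl.4 were at 0 in the others. srgn, the granule proteoglycan of blood cells, was at 29.0 against 188 CPM (ratio 0.155; 0.0927–0.246). The filter limits the UMIs of both lists in each cell, so their levels after it are set by it and are not compared. Early response genes were lower too: all 12 that were deep enough had a log2 ratio under 0 (median -0.80) and 4 were at least 2-fold lower, among them fosab at 205 against 476 CPM (ratio 0.430; 0.352–0.523). Of all 1626 genes, 685 were under 0 and 36 at least 2-fold lower. The summed ratio of the early response list was 0.534 (0.495–0.575) without and 0.884 (0.794–0.983) with the filter, and fosab was then at 1.04. Of the 36 lower genes, 8 had a ratio above 1 with the filter, among them tcima at 2.72 (1.26–6.38).

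**Figure D3:**
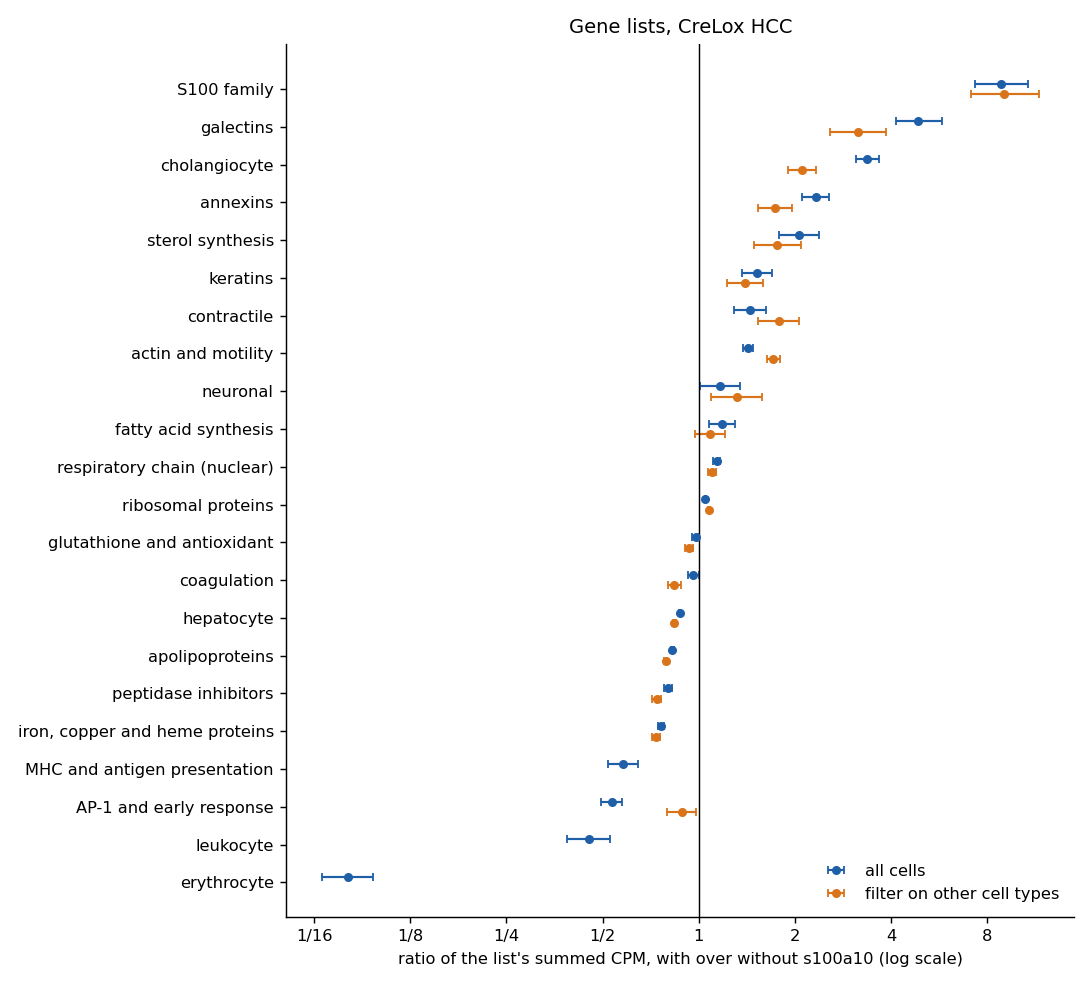
Points give the ratio of each list's summed CPM in s100a10 cells over cells without (log scale), for all 343 and 390 cells (blue) and for the 237 and 302 cells left by the filter on other cell types (orange); bars are exact 95% intervals for 2 Poisson counts. The S100 list is at 8.81 and 9.02, and the hepatocyte list at 0.872 and 0.838; only the blue points of the leukocyte, erythrocyte and MHC lists are drawn, because the filter itself limits genes of these lists.

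Housekeeping lists were near 1. Ribosomal protein genes had a summed ratio of 1.05 (1.04–1.06), with 70 of 77 above 0 on the log2 scale. Nuclear genes of the respiratory chain were at 1.14 (1.11–1.16), with 39 of 45 above 0 and none past 2-fold. Of all genes deep enough, 941 of 1626 were above 0, 46 (2.83%) were at least 2-fold higher and 36 (2.21%) at least 2-fold lower. The proteasome list was at 1.19 (1.1–1.29), with psmd8, a lid subunit, at 3.29 (1.78–6.47). The endoplasmic reticulum chaperones were at 1.02 (0.970–1.08) and the hepatocyte transcription factors at 0.965 (0.883–1.05), with hnf4a at 145 against 151 CPM. Amino acid catabolism was at 1.04 (1.02–1.06), with none of 23 genes past 2-fold.

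The ratios of icn and fabp1b.1 were above 1 and that of adh8a below 1 in each range of depth. Not all called genes held so well. In cells under 1500 UMIs, 27 of the 46 higher genes were still at least 2-fold higher. Of the 36 lower genes, 18 were still at least 2-fold lower there. The intervals of ponzr1 (0.105–2.75) and marcksl1b (0.169–1.86), both among the 12 lowest, held 1 in that range. icn had a ratio of 5.80 (4.16–8.24) in cells under 1500 UMIs, 12.5 (8.95–18.1) in cells of 1500 to under 2500 and 22.9 (13.5–42.3) in cells of 2500 to under 5000. Over the same ranges fabp1b.1 was at 3.04, 5.08 and 12.7. For both genes the level in s100a10 cells was about level across depth, with icn at 1292, 1777 and 1307 CPM, and the level in cells without was lower in deeper cells, with icn at 223, 142 and 57.0 CPM. adh8a was at 0.508, 0.5 and 0.456. uchl1 and ctnnb1 were at 1.47 (0.603–3.57) and 1.03 (0.451–2.3) in the shallowest range, where neither could be told from 1, and at 4.04 (1.89–9.6) and 3.48 (1.83–7.07) in the middle range.

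**Figure D4:**
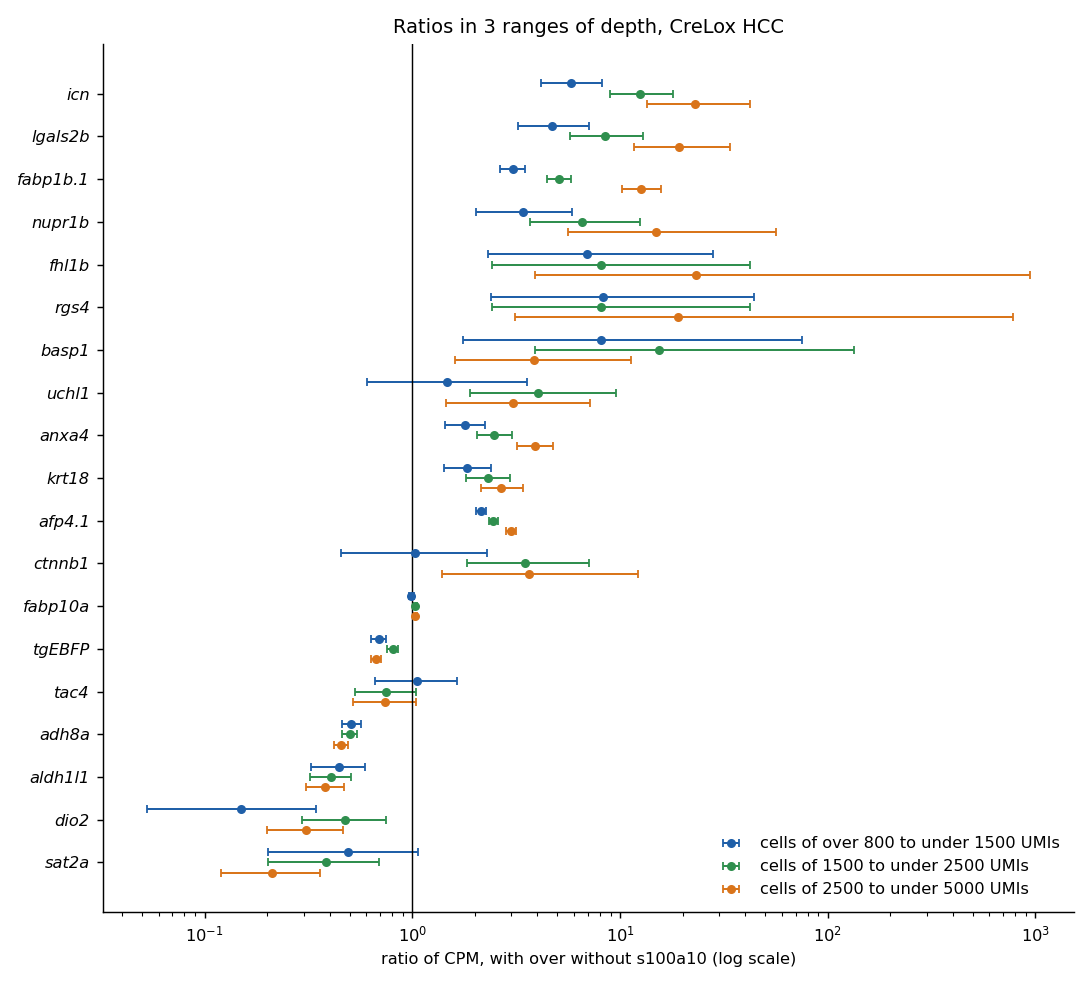
Points give each gene's ratio of CPM in s100a10 cells over cells without (log scale) in cells under 1500 UMIs (blue), of 1500 to under 2500 (green) and of 2500 to under 5000 (orange), with exact 95% intervals for 2 Poisson counts. icn moves from 5.80 to 22.9 with depth, fabp10a stays near 1, and adh8a stays between 0.456 and 0.508.

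Cells with either s100a10 copy alone were also set against the cells without s100a10. Cells with 2 or more UMIs of s100a10b and none of s100a10a (107 cells, median 2164 UMIs) kept the sign of all 46 higher genes. Cells with s100a10a alone (36 cells, median 1382.5 UMIs) kept it for 30 of 46. Both sets are parts of the 343 cells that gave the 46 genes, set against the same 390 cells. The kept signs are therefore a description and not separate support. icn was at 819 CPM with s100a10a alone, 901 with s100a10b alone and 1875 with both, against 136 in cells without. afp4.1 was at 11479, 21603 and 22976 CPM and lgals2b at 401, 1326 and 1024 CPM. uchl1 had 2 UMIs in cells with s100a10a alone, a ratio of 0.758 (0.0878–2.99), and 27 in cells with s100a10b alone, a ratio of 2.64 (1.51–4.59). The sets differ in depth and the s100a10a set holds 62287 UMIs, so a difference between the copies was not detectable for the low genes.

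The leading genes kept their direction in the deeper cells of CreLox HCC. Of cells with 5000 or more UMIs, under 2% mitochondrial UMIs and 0 UMIs of the 5 genes, 42 had 2 or more s100a10 UMIs and 33 had 0. icn had 517 UMIs in the former and 2 in the latter, a ratio of 184 (50.8–1527), and fabp1b.1 had 1722 and 73, a ratio of 16.8 (13.3–21.6). basp1 had 35 and 1 UMIs (ratio 25; 4.2–1014), rgs4 18 and 1 (ratio 12.8; 2.03–535) and uchl1 45 and 4 (ratio 8.03; 2.93–30.7). dio2 was at 79.3 against 445 CPM (ratio 0.178; 0.109–0.281) and adh8a at 3035 against 6816 CPM (ratio 0.445; 0.410–0.484). Among the genes lower in the shallow cells, 2 went the other way here: pfn1 had 31 against 4 UMIs (ratio 5.53; 1.96–21.6) and socs3a, a suppressor of cytokine signaling, 46 against 2 (ratio 16.4; 4.29–139). In the shallow cells pfn1 was at 0.173 (0.126–0.233) and socs3a at 0.198 (0.118–0.318). With the filter on other cell types the shallow cells had pfn1 at 0.987 and socs3a at 0.126 (0.00288–0.910), the latter on 1 and 9 UMIs. The filter on other cell types was not applied to these deeper cells, and the part of other cell types in those values was not tested.

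To set the libraries side by side at 1 depth, cells of any mitochondrial share were thinned to 1800 UMIs and the exclusions, the filter on other cell types and the s100a10 count were then applied. In CreLox HCC, 123 of 362 cells under 5000 UMIs (34%; 29.1–39.1) and 48 of 127 deeper cells (37.8%; 29.4–46.8) had 2 or more s100a10 UMIs. In HepABC HCC it was 203 of 606 cells (33.5%; 29.8–37.4), and in no HCC 0 of 97 cells, which allows a share of up to 3.09% by a limit of 3 cells and 3.73% by the Clopper-Pearson interval. The cells left were a minority of each library, with 606 of 2866 in HepABC HCC and 97 of 1077 in no HCC. The thrombocyte list of the filter holds f5 and fn1b. The paper lists both as raised in a hepatocyte cluster drawn mainly from HepABC HCC. How many hepatocytes the filter removed from each library was not counted. Under the rule as first stated, HepABC HCC had only 6 cells with and 2 without s100a10 and no HCC had 3 and 126, so no comparison was made inside no HCC. icn had a ratio of 14.9 (9.70–23.9) in the CreLox HCC cells under 5000 UMIs, 19.1 (8.94–48.9) in the deeper ones and 4.48 (3.62–5.59) in HepABC HCC. fabp1b.1 was at 4.97 (4.34–5.70), 10.8 (8.41–14.1) and 2.05 (1.84–2.28). Of the lower genes adh8a was at 0.452 (0.415–0.492), 0.357 (0.302–0.421) and 0.393 (0.348–0.443), and dio2 was at 0.389, 0.120 and 0.153. The neuronal genes basp1 and rgs4 had at most 1 UMI in each HepABC HCC set and could not be compared there, sat2a had 0 UMIs, and uchl1 had 8 UMIs in cells with s100a10 and 0 in cells without. Each library was 1 liver, and the difference in ratio between libraries was not tested.

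**Figure D5:**
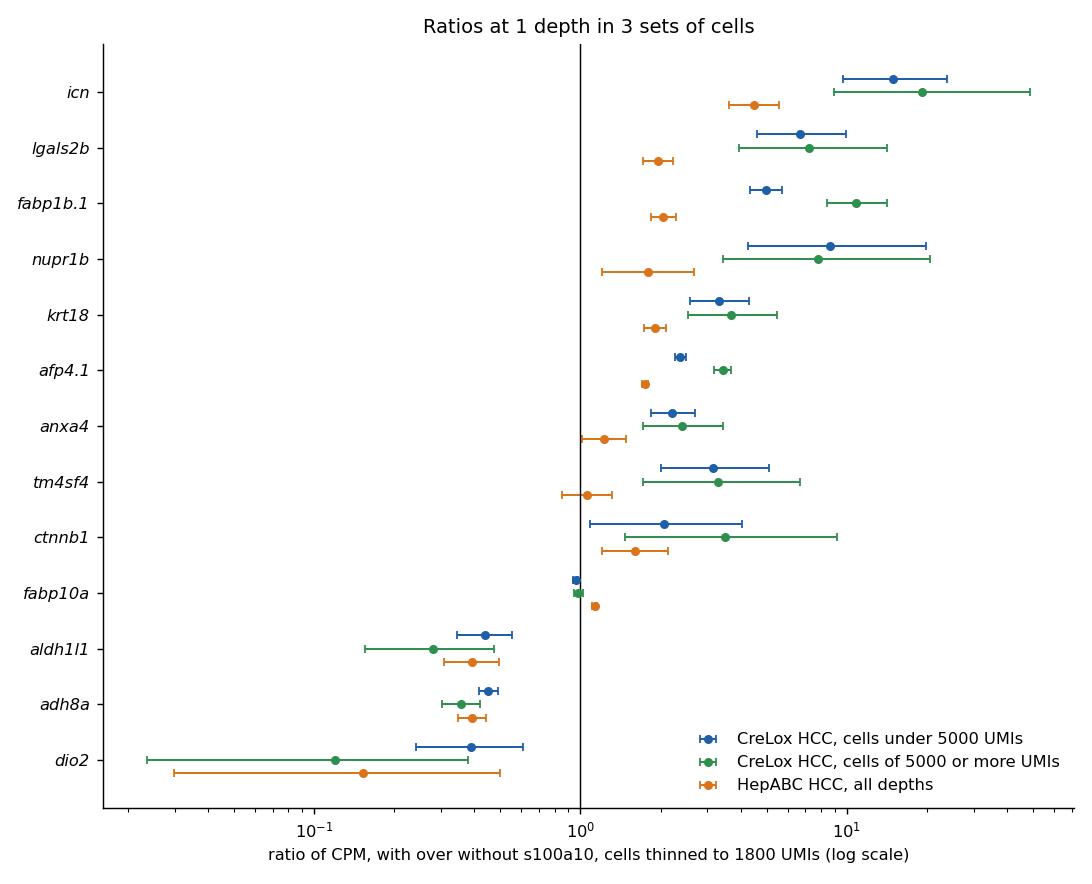
Points give each gene's ratio of CPM, s100a10 cells over cells without (log scale), after thinning every cell to 1800 UMIs, in CreLox HCC cells under 5000 UMIs (blue) and of 5000 or more (green) and in HepABC HCC (orange), with exact 95% intervals for 2 Poisson counts. icn is above 1 in all 3 sets at 14.9, 19.1 and 4.48, and adh8a, aldh1l1 and dio2 are below 1 in all 3.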

How the data were processed

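The authors deposited raw counts of UMIs for each gene in each cell. To make them they ran Cell Ranger 2.2.0 on 3′ droplet libraries against GRCz11 with the transgene sequences added, and called cells with EmptyDrops. Library totals were 9066031 UMIs in CreLox HCC (801 or more per cell), 47680774 in HepABC HCC and 5404507 in no HCC. Symbols are as deposited. Free RNA was not removed, and reads of near copies such as gsta.1 and gsta.2 are uncertain.

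UMIs were summed per set of cells and scaled to CPM. Ratios have exact intervals for 2 Poisson counts, and shares have Clopper-Pearson intervals. A fold of 2 on CPM + 10 was the limit for calling a gene higher or lower; genes needed 50 UMIs over both sets and UMIs in 20 cells. No test was made, with 1 library per group. Thinning drew UMIs without replacement. Genes were named from the 12 highest and 12 lowest, basp1, rgs4, uchl1, tac4, fabp10a and the transgenes, and up to 6 members of each of 41 gene lists (the 4 with the most UMIs and the highest and lowest ratio). Not every gene of these sets is in the text. A few more genes were chosen after their values were seen (ctnnb1, tmem97, afp4.1, krt18, ndrg2, fasn and other members of the 82 called genes). The cells and lists were chosen with earlier results of these data known. Doublets were kept; leaving out 36 cells of the library by a simulated-sum score (5 s100a10 cells, 3 without) was an alternative. Between libraries 8, 2 and 1 barcodes were shared (HepABC HCC and CreLox HCC, CreLox HCC and no HCC, HepABC HCC and no HCC), and 2 of the compared cells carried such a barcode. Python 3.11.15, scipy 1.17.1, R 4.3.3 and edgeR 4.0.16 (TMM factors only) were used. The ratio and list calculations were checked on simulated data. 1 gene is not reported here.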

Additional observations from a re-analysis of the deposited data

How the results depend on the processing

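No paired analysis was possible because each group had 1 library, and no library could be left out. The 46 higher and 36 lower genes became 108 and 121 without a limit on low counts, 17 and 12 with at least 200 UMIs, 20 and 17 with 50 added to CPM, and 28 and 18 when 1 s100a10 UMI was enough. With 4 or more s100a10 UMIs there were 65 and 56, with 0.2% or more of UMIs 68 and 58, and at a 1% mitochondrial limit 46 and 21. There were 54 and 87 without the exclusion of the 5 genes and 31 and 13 with the filter on other cell types. Higher and lower genes numbered 10 and 13 under 1500 UMIs, 24 and 19 at 1500 to under 2500, and 14 and 17 after thinning to 800 UMIs, where fewer genes were deep enough (563, 744 and 841). Cells with 0 UMIs over the cholangiocyte list were 19 and 86, and gave 4 and 10. Cells with s100a10a alone gave 19 and 70, and with s100a10b alone 24 and 31. Without a mitochondrial limit there were 40 and 53. Lower genes thus outnumbered higher ones in several settings, among them either s100a10 copy alone, no limit on low counts, no exclusion of the 5 genes and thinning to 800 UMIs. Other scalings, including TMM, gave 38 to 50 higher and 32 to 40 lower. Leaving out high doublet scores gave 49 and 37. Without the 4 cells with epcam, krt4, sox9b or elf3 there were 41 of each. The settings on a single s100a10 copy and on those 4 genes were chosen after seeing the data.

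Ratios crossed 1 with the filter on other cell types for ponzr1 (1.14), marcksl1b (1.32), cd74a (1.36), cd74b (1.51), fosab (1.04), tcima (2.72), ier2b (1.14) and txnipa (1.14), which are all 8 lower genes that turned; cd74a and cd74b are on a list the filter limits. They crossed 1 under 1500 UMIs for cd74a (1.47) and cd74b (1.32). At 0 cholangiocyte-list UMIs they did so for cd74b (1.02), s100v2 (0.649), serpina7 (0.397), gsta.2 (3.90), psmd8 (0.974) and eif4a2 (1.3), and with s100a10a alone for uchl1 (0.758), tagln2 (0.641), elovl6 (0.650) and hmgcs1 (0.989). The leukocyte list's median log2 ratio, -1.39 in the main comparison, was 0.49 at 200 UMIs, 0.71 at 1500 to under 2500 UMIs and 0.57 at a 1% mitochondrial limit, and the neuronal list's, 1.27, was -0.33 at 200 UMIs, -0.41 at 1500 to under 2500, -0.42 at 2500 to under 5000, -0.03 when thinned and -0.52 with s100a10b alone. At 200 UMIs these medians were the values of cd63 and tac4, the only members of each list still deep enough. At 1500 to under 2500 UMIs basp1, rgs4 and uchl1 kept ratios of 15.4, 8.08 and 4.04, beside 0.747 for tac4 and 0.661 for marcksl1b. At 2500 to under 5000 UMIs they were at 3.87, 19 and 3.05, beside 0.736 and 0.11. The negative neuronal medians of these ranges were therefore not a reversal of basp1, rgs4 or uchl1. The cause in the other settings was not tested. Of 3416 recomputed ratios 17 were classed as reversed and 740 as moved. At 0 cholangiocyte-list UMIs, 29 of the 46 higher and 28 of the 36 lower genes kept their sign. Under 1500 UMIs, 45 and 33 did, and with s100a10a alone 30 of the 46 higher genes did. The genes named above for these 3 settings are therefore only some of those that did not keep their sign. icn ranged from 1.71 at 0 cholangiocyte-list UMIs to 22.9 at 2500 to under 5000 UMIs, above 1 throughout. The lowest of these came from 19 s100a10 cells and 86 cells without, and whether it differed from 1 was not tested.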
